A study of Mus musculus with 6 samples.

Results

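Autophagy is the route by which a cell wraps part of its own contents in a double membrane, the autophagosome, and delivers them to the lysosome for breakdown. Described here are 36 genes of that machinery, chosen by name as the kinases, lipid enzymes, conjugation enzymes, ATG8-family proteins and cargo receptors of the pathway, of 33006 genes in the count tables. The symbols of 35 were found as such, and Atg101 stood under its older symbol 9430023L20Rik. All 36 passed the filter on low counts, with 183 to 11926 reads of a member in a library.

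The libraries came from primary lung endothelial cells, which line blood and lymphatic vessels, of C57BL/6 mice, grown in EBM-2 with the EGM-2 MV supplements. At 80% confluence the cultures received water (control, 3 libraries) or 300 uM hydrogen peroxide (H2O2, 3 libraries) for 6 hours. The comparison asks how messenger RNA differs after that oxidant. No genotype or other agent is named, and the labels do not give the number of animals or say whether the libraries of a group came from separate cultures, so that the p-values reflect no more than the spread from library to library, possibly a technical one.

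Gene counts per library ran from 22455388 to 27618679. Pairs of libraries within a group were further apart than counting noise (chi-square over genes divided by its degrees of freedom, 1.62 to 10.96), most of all H2O2 replicate 3 from replicates 1 and 2. Endothelial markers were abundant, led by Cdh5 (1149 ± 43.7 CPM in controls, CPM being read counts scaled to library size with TMM factors), and their summed level was 4080 to 4170 CPM in controls and 4310 to 4340 with H2O2. Of 9 tested, 3 were higher with H2O2 (33.3%, beside 9.7% of all genes), Pecam1 (0.10 on the log2 scale), Tek (0.17) and Emcn (0.24). Of the same 9, 0 were lower, beside 10.8% of all genes. The part of this difference in the results was not tested. Cldn5, a tight junction gene of endothelium, was nearly absent at 0.294 CPM. Summed markers of epithelium (0.359 to 1.00 CPM, led by Krt18), smooth muscle and pericytes (3.91 to 5.42, led by Cspg4) and mesothelium (0.219 to 0.558, led by Msln) were low, and those of fibroblasts (24.9 to 28.8) were mostly Dcn. The leukocyte list (157 to 170 CPM) was almost all Cd68, which encodes a lysosomal membrane protein, whereas Adgre1 and Cd3e were at 0. None of these other-cell markers passed the test, most being too low to enter it, and their part in the results was not tested. In bulk RNA, fewer cells of a type and less RNA per cell cannot be told apart.

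The pathway starts when the ULK kinase complex is released from inhibition by mTORC1. A phosphatidylinositol 3-kinase complex built on beclin 1 then marks the growing membrane, ATG9 and ATG2 supply lipid to it, and a pair of ubiquitin-like conjugation systems attach ATG8-family proteins (LC3 and GABARAP) to its surface, where cargo receptors bind. In endothelium, autophagy is known as a housekeeping and stress-survival route. Much of its control lies in protein modification, which RNA counts do not measure.

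With H2O2, 8 of the 36 genes were lower (Pik3c3, Pik3r4, Ambra1, Atg2b, Atg7, Gabarapl1, Nbr1 and Calcoco1), 1 was higher (Gabarap), and 27 did not pass. Genes were called at an adjusted p under 0.05 in the quasi-likelihood test of edgeR, with p-values adjusted by Benjamini-Hochberg over all 12924 genes tested. All 9 changes were small, 1.08-fold to 1.15-fold. Members were called in 25% of cases, beside a background of 20.5% over all genes tested. By direction, 22.2% of members were lower beside 10.8% of all genes, and 2.78% were higher beside 9.7% of all genes. The median log2 fold change was -0.01 for the members and -0.0041 for all genes tested. All 3 H2O2 libraries lay below all controls for 9 members (25%, beside 18.2% of all genes) and above them for 4 (11.1%, beside 16.5%). Against a median change of 13.2% among all genes called, 0 of the 9 called members reached 1.2-fold, beside 595 of the 2649 genes called in all. The fall count was 5 by DESeq2's test, which did not call Pik3c3, Pik3r4 and Calcoco1. Over all genes that test also called fewer lower, 993 in place of 1395.

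**Figure D1:**
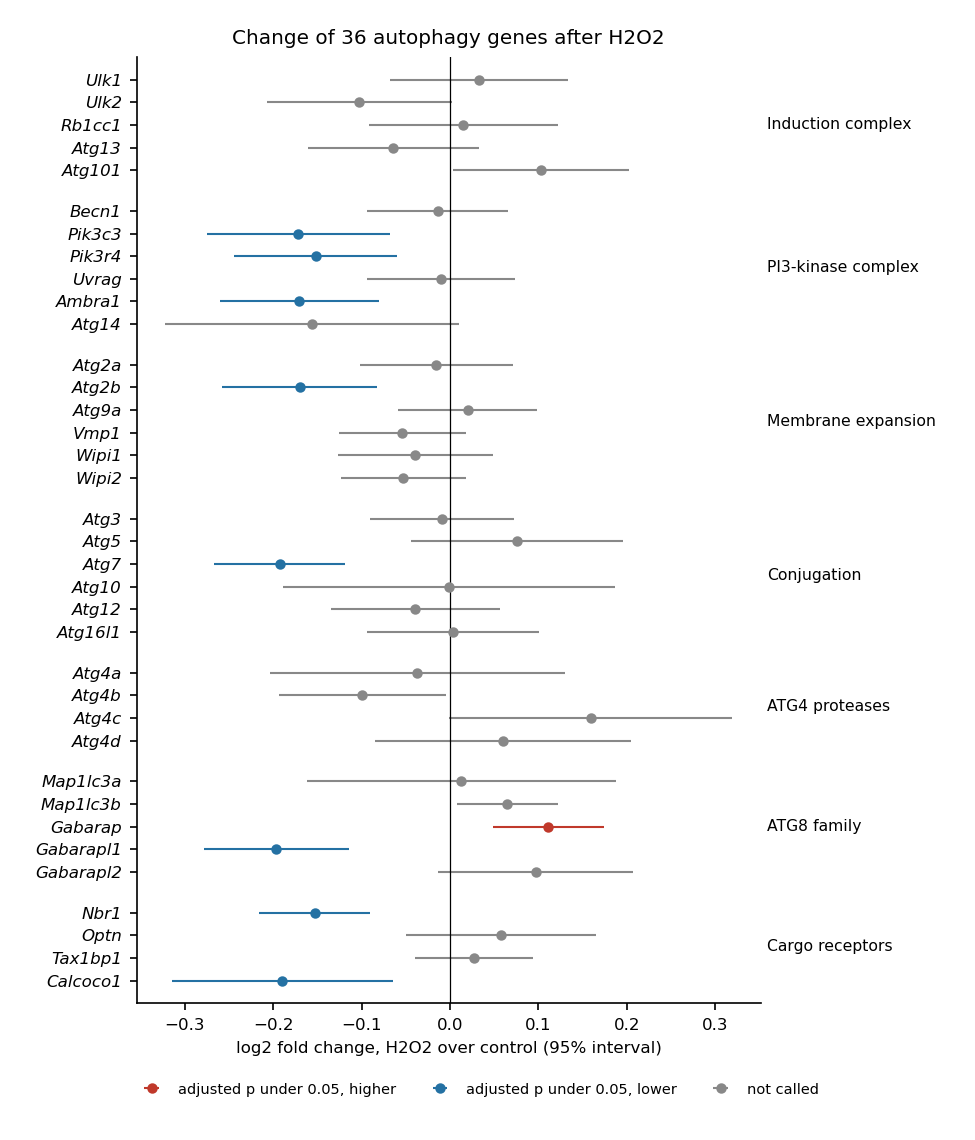
Log2 fold change (x axis, H2O2 over control) of each of the 36 genes (y axis, grouped by role), with 95% intervals from edgeR's quasi-likelihood test on 3 libraries per group; blue points were lower and the red point higher at an adjusted p under 0.05. The 8 falls lie between -0.15 and -0.20, and the 1 rise, Gabarap, at 0.11.

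To compare genes with each other, CPM was divided by the length of the longest annotated transcript in kilobases. On this level scale in controls the 2 most abundant members were the ATG8-family genes Map1lc3b, which encodes LC3B, at 156 ± 1.96 CPM per kilobase and Gabarap at 152.9 ± 1.51 (SD, n = 3). Across the controls the ranges of these genes overlapped, but within each control library Map1lc3b was the higher on this scale. That order rests on the lengths taken, 2633 bases for Map1lc3b and 1351 for Gabarap. Which transcripts the cells used was not measured, and the SDs do not cover that choice. With the same lengths, Map1lc3b made up 40.2%, 40.4% and 40.4% of the summed ATG8-family level in controls 1 to 3, against 39.3%, 39.7% and 39.6% for Gabarap. Tax1bp1 (51.6 ± 1.87) and Gabarapl1 (51.6 ± 1.36) followed and did not differ beyond their spread. Next came Vmp1 (40.1 ± 0.975), Nbr1 (35.5 ± 0.28), Atg101 (32.9 ± 2.00) and Atg3 (29.1 ± 0.564). The lowest members were the protease genes Atg4d (2.36 ± 0.0844) and Atg4c (3.48 ± 0.201) and the PI3-kinase subunit Atg14 (2.94 ± 0.124). The last place of Atg4d also rests on the length taken, 5951 bases. By mean CPM in controls, Atg4d stood above Atg10, Atg14, Map1lc3a and Atg4c. With H2O2, Gabarap (165 CPM per kilobase) and Map1lc3b (163) again stood at the top.

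**Figure D2:**
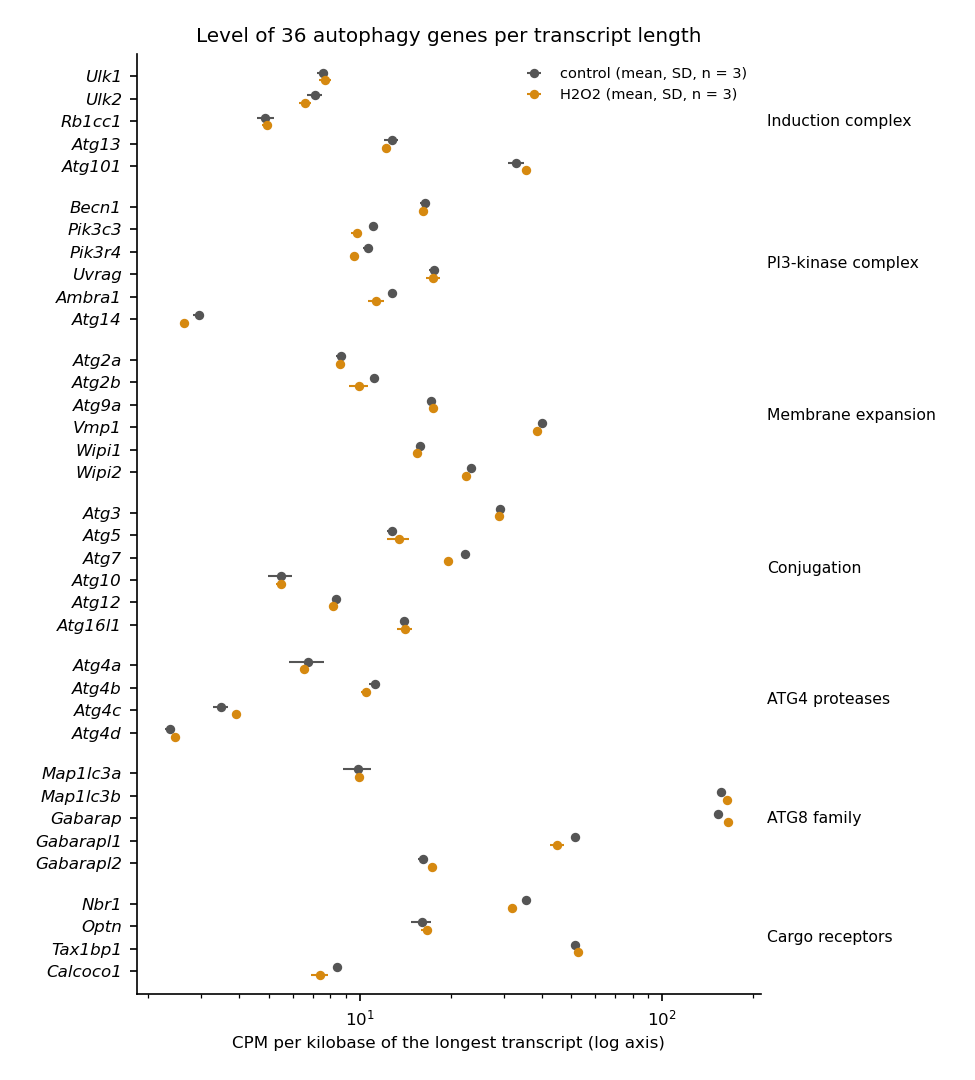
Level of each gene (y axis) as CPM per kilobase of its longest transcript (x axis, log scale), mean ± SD of 3 control (grey) and 3 H2O2 (orange) libraries. Map1lc3b and Gabarap stand at the top, near 156 and 153 in controls, and Atg4d at the bottom, near 2.36.

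The induction complex pairs the kinases ULK1 and ULK2 with the scaffolds FIP200 (Rb1cc1), ATG13 and ATG101. Of its 5 genes 0 passed, beside 20.5% of all genes tested. The groups overlapped for all 5, whereas they did not overlap for 34.6% of all genes. With 5 genes these counts say little about the complex. Its most abundant gene by CPM, Atg13, gave 43.7, 48.5 and 45.7 CPM in control libraries 1 to 3 and 42.6, 45.1 and 44.2 with H2O2. These values interleave, and the log2 fold change of -0.06 had a 95% interval from -0.16 to 0.03. Ulk1 stood at 0.03 (-0.07 to 0.13), Ulk2 at -0.10 (-0.21 to 0.00), Rb1cc1 at 0.02 (-0.09 to 0.12) and Atg101 at 0.10 (0.0034 to 0.20) on the same scale. The ratio of Ulk1 to Ulk2 counts was 0.964 ± 0.0444 in controls and 1.06 ± 0.0375 with H2O2, with the highest control at 1.015 and the lowest H2O2 library at 1.020 (exact permutation test, two-sided, p = 0.1, the smallest possible here, and 0.15 adjusted over 6 ratios). Atg101 passed only without control replicate 1, at 0.16 with an adjusted p of 0.0266 by edgeR, against 0.0266 to 0.868 over 16 alternatives, and it stood at 0.01 with an offset for its short transcript and GC content.

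In the PI3-kinase complex 3 of 6 genes fell (50%, beside 10.8% of all genes), the same share as among the cargo receptors. By DESeq2's test 1 of 6 did, and of all genes 993 in place of 1395. With 6 genes these counts say little about the complex. The log2 fold changes of all 6 were negative, with a median of -0.15, beside 6630 negative of the 12924 genes tested. Those of Becn1 and Uvrag were near 0, at -0.01 each, and changed sign between alternatives. Pik3c3, the catalytic lipid kinase VPS34, gave 36.4, 35.1 and 36.5 CPM in controls and 31.4, 31.0 and 33.5 with H2O2. Pik3r4, its regulatory subunit VPS15, gave 48.7, 52.7 and 50.5 CPM in controls and 46.2, 46.6 and 44.0 with H2O2. Ambra1, a scaffold that links beclin 1 to its partners, gave 68.2, 65.1 and 65.9 CPM in controls and 54.9, 61.5 and 60.5 with H2O2. In each of these 3 genes every H2O2 library lay below every control, and for Ambra1 H2O2 replicate 1 was the lowest. On the log2 scale the falls were -0.17 (SE 0.0503) for Pik3c3, -0.15 (SE 0.0447) for Pik3r4 and -0.17 (SE 0.0438) for Ambra1, and edgeR gave adjusted p-values of 0.0153, 0.0155 and 0.00583. Pik3c3 lies on chromosome 18 (30272747 to 30348126), Pik3r4 on chromosome 9 (105642978 to 105687657) and Ambra1 on chromosome 2 (91730134 to 91918849) in mm10, GENCODE M21.

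The calls in this complex were near the threshold. Pik3c3 did not pass by DESeq2's test or in the fits without control library 1 or 3 and without H2O2 library 1 or 2 (adjusted p 0.00625 to 0.0774 over 16 alternatives), Pik3r4 did not pass by DESeq2's test, without control replicate 2 or H2O2 replicate 3 or when length and GC content of transcripts entered as an offset (0.0103 to 0.116), and Ambra1 did not pass without H2O2 replicate 1 (0.00179 to 0.0772). Beclin 1 itself (Becn1), the core of the complex, was at 74.6, 70.0 and 70.0 CPM in controls and 70.8, 70.5 and 71.2 with H2O2, a log2 fold change of -0.01 with an interval from -0.09 to 0.07. Of its exon bases, 43.9% lie under Cntd1 on the other strand, and the strand setting of the counting is not known here. Uvrag, the beclin partner of late endosomes, stood at -0.01 (-0.09 to 0.07), and Gm45187 on the other strand covers 17.6% of its exon bases. Atg14, the partner that directs the complex to autophagosomes, had H2O2 libraries below controls (9.83 ± 0.264 against 10.96 ± 0.462 CPM), but with 256 to 272 reads a library its value of -0.16 (-0.32 to 0.01) did not pass.

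Among the 6 genes of membrane supply and expansion only Atg2b passed, as lower (16.7%, beside 10.8% of all genes). It encodes a lipid transfer protein that bridges the endoplasmic reticulum and the growing membrane. Its CPM was 85.1, 82.7 and 85.4 in controls and 71.6, 81.0 and 72.4 with H2O2, so H2O2 replicate 2 lay close under the controls. The fall was -0.17 on the log2 scale (SE 0.0428; edgeR adjusted p = 0.00497), and it passed in all 16 alternatives with adjusted p up to 0.0498. Its paralog Atg2a, with the same function, stood at -0.02 (-0.10 to 0.07). The ratio of Atg2b to Atg2a counts was 1.53 ± 0.0715 in controls and 1.37 ± 0.113 with H2O2, and the groups overlapped (exact permutation test, two-sided, p = 0.2, adjusted p = 0.24 over 6 ratios). The lipid scramblases Atg9a (0.02) and Vmp1 (-0.05) and the phosphoinositide readers Wipi1 (-0.04) and Wipi2 (-0.05) did not pass. Of the exon bases of Atg9a, 31.8% lie under exons of Gm29253 on the same strand. The ratio of Wipi1 to Wipi2 counts was 0.438 ± 0.0105 and 0.442 ± 0.00945 (exact permutation p = 0.9). Atg2b lies on chromosome 12 (105616136 to 105685211).

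Of 6 conjugation genes, Atg7 fell (16.7%, beside 10.8% of all genes) and 5 did not pass. ATG7 is the E1-like enzyme that activates both ATG12 and the ATG8 proteins. Atg7 gave 85.8, 88.6 and 86.8 CPM in controls and 76.8, 76.1 and 75.8 with H2O2, which is a gap of several times the spread within either group. The log2 fold change was -0.19 (SE 0.0361; edgeR adjusted p = 0.000289), and it passed in all 16 alternatives with adjusted p up to 0.00451. The E2-like enzymes Atg3 (-0.01, interval -0.09 to 0.07) and Atg10 (-0.00079, -0.19 to 0.19) did not pass, and neither did Atg12 (-0.04), its acceptor Atg5 (0.08) or the scaffold Atg16l1 (0.0035). Atg7 lies on chromosome 6, from 114643097 to 114860614.

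TFEB and TFE3, transcription factors of lysosomal and autophagy genes, bind the CLEAR element, whose core is CACGTG. Promoters of 30 of the 36 members were found in the RefSeq table (GRCm38.p6, the assembly of mm10), and the 250 bases before each annotated start were searched on both strands. Atg3, Atg5 and Atg7 held CACGTG, which was in 8.33% of 36 member promoters and in 6.02% of 32851 promoters of the table. The longer TCACGTGA, which contains it, was in Atg3 alone (2.78% of member promoters, 0.785% of all). The antioxidant response element core TGACNNNGC, to which NRF2 binds, was in Ulk2, Atg13, Vmp1 and Tax1bp1 (16.7% of member promoters, 10.2% of all), and TGATGNAAT, the C/EBP-ATF element bound by ATF4, was in 0 member promoters (0.816% of all). Of the 9 called members, Atg7 held CACGTG and the others found in the table held none of the 4. The stretches of the 3 conjugation genes are shown because Atg7 alone of them passed the test, with those of Ambra1 and Calcoco1, which fell and hold no match. Bases covered by annotated exons are left out, and capitals mark CACGTG or TCACGTGA:
Atg7 (chr6:114670846-114671095, + strand, inside the gene before a RefSeq start): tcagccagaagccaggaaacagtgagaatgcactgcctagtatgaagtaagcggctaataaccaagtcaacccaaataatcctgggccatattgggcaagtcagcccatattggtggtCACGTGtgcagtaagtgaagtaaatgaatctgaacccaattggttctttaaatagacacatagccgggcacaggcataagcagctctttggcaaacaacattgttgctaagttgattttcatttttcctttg
Atg5 (chr10:44268089-44268338, + strand): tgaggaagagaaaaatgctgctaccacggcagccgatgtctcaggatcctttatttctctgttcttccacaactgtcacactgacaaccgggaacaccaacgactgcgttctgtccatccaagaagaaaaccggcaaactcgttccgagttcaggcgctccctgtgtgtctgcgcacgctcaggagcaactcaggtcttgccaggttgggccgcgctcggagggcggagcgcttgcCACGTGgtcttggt
Atg3 (chr16:45158707-45158784, + strand): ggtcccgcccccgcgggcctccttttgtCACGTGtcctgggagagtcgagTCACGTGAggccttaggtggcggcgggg
Ambra1 (chr2:91729888-91730133, + strand): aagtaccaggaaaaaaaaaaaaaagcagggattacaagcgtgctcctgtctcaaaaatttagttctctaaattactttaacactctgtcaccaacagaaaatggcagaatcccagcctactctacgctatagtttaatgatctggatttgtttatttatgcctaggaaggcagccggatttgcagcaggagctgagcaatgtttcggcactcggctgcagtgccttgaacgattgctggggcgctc
Calcoco1 (chr15:102722179-102722428, - strand): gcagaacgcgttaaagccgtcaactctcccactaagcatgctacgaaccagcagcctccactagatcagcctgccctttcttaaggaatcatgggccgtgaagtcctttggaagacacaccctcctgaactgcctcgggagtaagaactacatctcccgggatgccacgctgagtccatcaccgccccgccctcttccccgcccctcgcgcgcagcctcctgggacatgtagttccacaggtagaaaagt

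The ATG4 proteases trim ATG8 proteins before conjugation and release them afterwards. None of the 4 passed, beside 20.5% of all genes tested, which says little in so short a list. The most abundant by CPM, Atg4b, gave 46.9, 48.6 and 44.8 CPM in controls and 45, 44 and 42.2 with H2O2, a log2 fold change of -0.10 (-0.19 to -0.0049). Control replicate 3 lies among the H2O2 values. Atg4c had all H2O2 libraries above all controls (12.4 ± 0.323 against 11.1 ± 0.639 CPM) and stood at 0.16 (-0.0010 to 0.32, edgeR adjusted p = 0.162). Atg4a (-0.04) and Atg4d (0.06) overlapped between groups, and an opposite-strand gene, Kri1, covers 19.3% of the exon bases of Atg4d.

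The ATG8 family held the 1 rise and the largest fall of the 36. Of its 5 genes 20% were higher and 20% lower, beside 9.7% and 10.8% of all genes. All H2O2 libraries lay above all controls for 60% (16.5% of all genes) and below them for 20% (18.2%). With 5 genes these shares say little about the family. Gabarapl1, which encodes an ATG8 protein of the GABARAP branch, gave 95.2, 91.1 and 95.5 CPM in controls and 84.0, 84.8 and 77.0 with H2O2. Gabarap gave 206.7, 204.4 and 208.5 CPM in controls and 229.6, 215.9 and 223.8 with H2O2. Neither gene's groups overlapped, and Gabarapl1 and Gabarap thus lay on opposite sides of their controls. The log2 fold changes were -0.20 for Gabarapl1 (SE 0.0401; edgeR adjusted p = 0.000735) and 0.11 for Gabarap (SE 0.0305; adjusted p = 0.00979). Gabarapl1 passed in all 16 alternatives. Gabarap did not pass with the length and GC offset (0.07, adjusted p = 0.0671) or without control replicate 2 or H2O2 replicate 1, with adjusted p of 0.00332 to 0.0692 over 16 alternatives.

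Map1lc3b, the most abundant member by CPM, gave 412, 404.9 and 415 CPM in controls and 429, 424.3 and 435.2 with H2O2. Every H2O2 library was above every control, but the log2 fold change of 0.06 (0.0081 to 0.12) did not pass (edgeR adjusted p = 0.102). It passed with upper-quartile factors (0.08, adjusted p = 0.0484) and with the length and GC offset (0.09, adjusted p = 0.0144), against 0.0125 to 0.3 over 16 alternatives. Gabarapl2 was also above controls in every H2O2 library (29.1 ± 0.674 against 27.2 ± 0.995 CPM) and stood at 0.10 (-0.01 to 0.21). Map1lc3a, which encodes LC3A, was low at 10.98 ± 1.18 and 11.1 ± 0.308 CPM.

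Per kilobase, Gabarapl1 made up 13.5%, 13.1% and 13.5% of the ATG8-family level in controls and 11.4%, 11.8% and 10.6% with H2O2. Gabarap made up 39.3%, 39.7% and 39.6% in controls and 41.8%, 40.4% and 41.4% with H2O2, and Map1lc3b 40.3% ± 0.0947 and 40.7% ± 0.608 (SD, n = 3). The ratio of Gabarapl1 to Gabarap counts, which no scaling between libraries affects, was 0.455 ± 0.00807 in controls and 0.368 ± 0.0244 with H2O2. It was lower in 3 of 3 H2O2 libraries (exact permutation test, two-sided, p = 0.1, the smallest that 3 against 3 libraries can give, and 0.15 adjusted over 6 ratios). With Gabarapl1 below and Gabarap above all controls in these same libraries, that outcome was fixed and adds no support. The ratio of Gabarapl1 to Map1lc3b was likewise lower in 3 of 3, at 0.229 ± 0.0033 and 0.191 ± 0.0123 (exact permutation p = 0.1, adjusted p = 0.15). This too was fixed, as Map1lc3b lay above all controls. Gabarapl1 lies on chromosome 6 (129533160 to 129542346) and Gabarap on chromosome 11 (69991143 to 69994951). Of the exon bases of Gabarapl1, 28.3% lie under exons of 1700101I11Rik on the other strand, and the strand setting of the counting is not given in the sources used here.

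Cargo receptors bind ubiquitin or organelles on 1 side and ATG8 proteins on the other. Of the 4 here, Nbr1 and Calcoco1 fell (50%, beside 10.8% of all genes). By DESeq2's test Nbr1 alone did, and of all genes 993 were lower in place of 1395. In a list of 4 genes these counts say little about the group. Nbr1, a ubiquitin-binding receptor of protein aggregates and peroxisomes, gave 168.6, 170.9 and 171 CPM in controls and 152.4, 155 and 151.6 with H2O2. Its control spread, 0.789% of the mean, was the lowest of all members, and the groups were well apart. The fall was -0.15 on the log2 scale (SE 0.0306; edgeR adjusted p = 0.000584), and it passed in all 16 alternatives. Calcoco1, a receptor of the endoplasmic reticulum and Golgi, gave 24.8, 25.5 and 24.5 CPM in controls and 22.6, 20.3 and 22.9 with H2O2. Its fall of -0.19 (SE 0.0608; adjusted p = 0.0266) did not pass by DESeq2's test, without any 1 of the controls or without H2O2 replicate 2, where it was -0.13, with adjusted p of 0.0158 to 0.168 over 16 alternatives.

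Tax1bp1 (0.03, interval -0.04 to 0.09) and Optn (0.06, -0.05 to 0.16), both ubiquitin-binding receptors that act in mitophagy and in the clearance of bacteria, did not pass. The ratio of Nbr1 to Tax1bp1 counts was 1.00 ± 0.0354 in controls and 0.885 ± 0.0202 with H2O2, lower in 3 of 3 libraries (exact permutation test, two-sided, p = 0.1, adjusted p = 0.15 over 6 ratios). Nbr1 lies on chromosome 11 (101552149 to 101581951) and Calcoco1 on chromosome 15 (102706777 to 102722178).

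**Figure D3:**
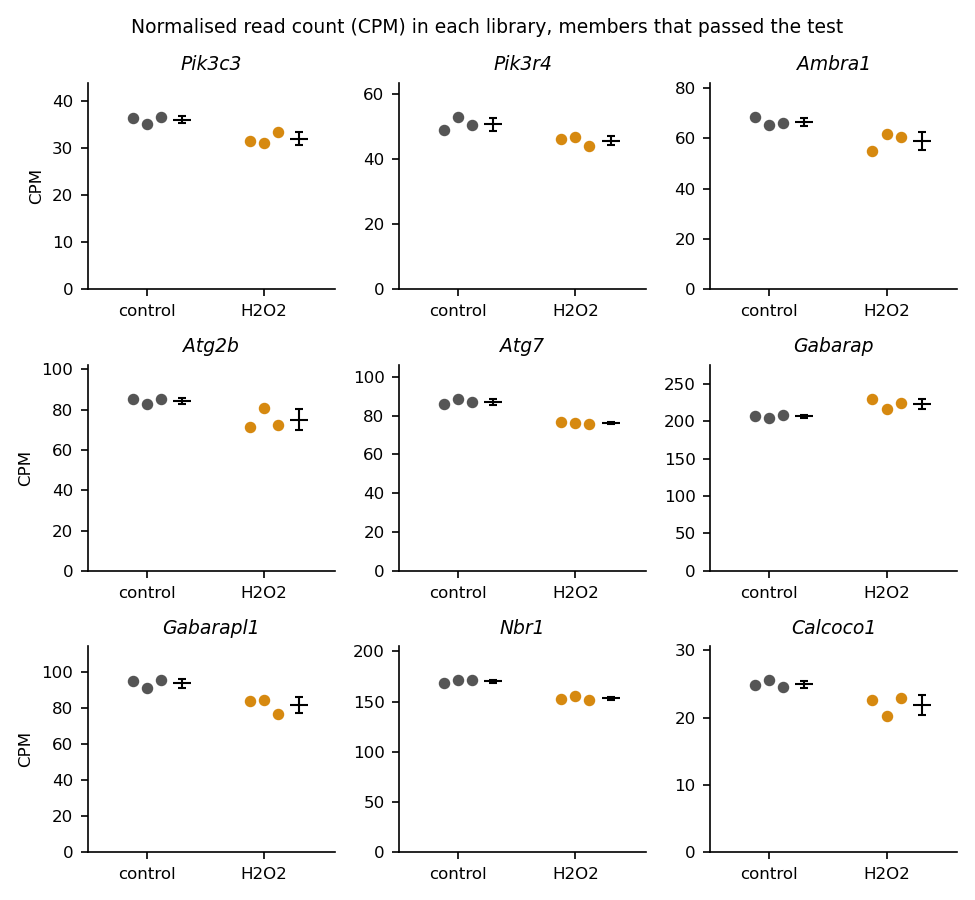
Normalised read count (y axis, CPM from 0) of the 9 genes that passed the test, in 3 control (grey) and 3 H2O2 (orange) libraries, with mean ± SD beside the points. In each panel the groups do not overlap, as for Nbr1, with 168.6 to 171 CPM in controls and 151.6 to 155 with H2O2.

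The changes differed by transcript length, but without a steady trend. Over all tested genes, the shortest of 5 equal bins (up to 1717 bases) had a median log2 fold change of 0.06, with 20.1% higher and 4.76% lower. The middle bin (2616 to 3579 bases) had -0.03, with 5.9% higher and 13.2% lower. Medians were -0.0038 in the second bin, -0.02 in the fourth and -0.0083 in the longest (from 5045 bases). Gabarap, with a transcript of 1351 bases, was among the 5 members in the shortest bin, whose median was 0.10. All 8 falls lay in the longer bins, which held the rest of the 36 members. Across the 36 members, Spearman's rho of the log2 fold change with length was -0.321, and across 12806 genes it was -0.138, and the points share the same 6 libraries. With the length and GC offset, 7 of the 8 falls still passed, all but Pik3r4, and Gabarap did not.

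**Figure D4:**
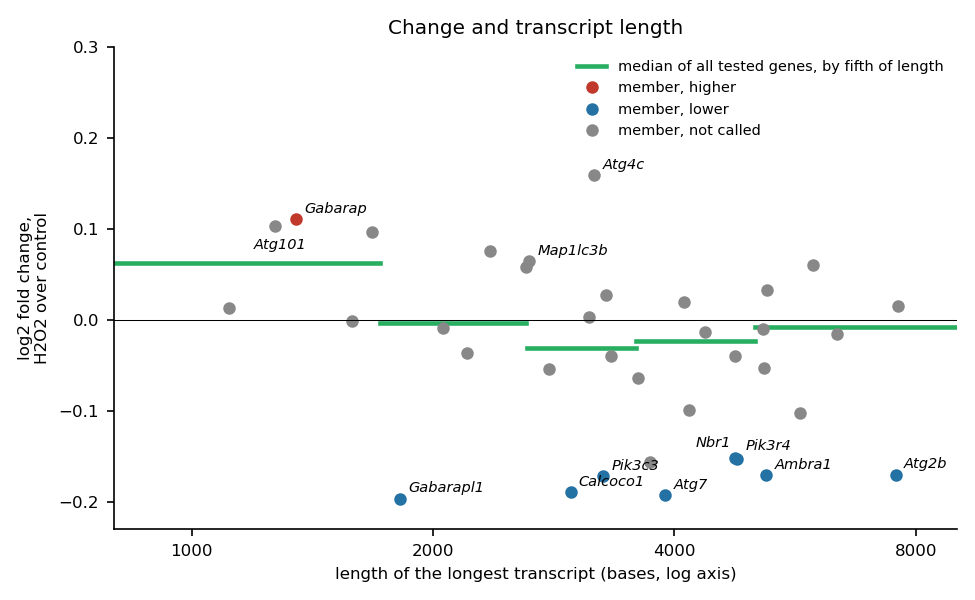
Log2 fold change of each member (y axis) against the length of its longest transcript in bases (x axis, log scale), with green lines for the median of all tested genes in each of 5 length bins. Gabarap lies among the shortest transcripts, where the median of all genes was 0.06, and the falls spread over 1820 to 7546 bases.

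Beyond the 36, 74 other autophagy genes in 5 lists were read the same way, and 71 passed the filter on low counts. Of these 17 were lower and 3 higher (23.9% and 4.23%), again beside 10.8% and 9.7% of all genes. The receptor Sqstm1 (p62), whose protein is used as a gauge of autophagic flux, had the smallest p of them. It gave 1603, 1663 and 1640 CPM in controls and 1157, 1189 and 1203 with H2O2, a log2 fold change of -0.47 (SE 0.0274; edgeR adjusted p = 1.77e-12). The groups were far apart, and none of the 4 receptors among the 36 had a fold change of that size. Mrnip on the other strand overlaps 17.3% of its exon bases.

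In the list of other receptors, mitophagy and endoplasmic reticulum autophagy, 5 of 18 genes tested fell (27.8%, beside 10.8% of all genes). In the same list 1 rose (5.56%, beside 9.7% of all genes). Beside Sqstm1, the glycogen receptor Stbd1 fell by 0.71 on the log2 scale (5.54 ± 0.517 to 3.38 ± 0.401 CPM), and, named after their values were seen, the mitophagy receptor Bnip3 (-0.27), the translocon protein Sec62 (-0.12) and the adaptor Tollip (-0.13) fell and the reticulum receptor Tex264 rose (0.19). Tollip did not pass without control replicate 2 or 3 or H2O2 replicate 3.

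Fusion of autophagosomes with lysosomes needs tethers such as the HOPS complex, and 5 of 13 genes of that step fell (38.5%, beside 10.8% of all genes). In a list of 13 genes these falls, and the 0 that rose beside 9.7% of all genes, say little about the step. Vps18, a HOPS subunit, gave 78, 81.4 and 78.9 CPM in controls and 61.8, 65.8 and 63.5 with H2O2, a fall of -0.32 (SE 0.0390; edgeR adjusted p = 9.27e-07). The tether Tecpr1 fell by 0.20 (SE 0.0316; adjusted p = 2.84e-05). The other 3 falls, named after their values were seen, were those of the HOPS subunits Vps11 (-0.19), Vps16 (-0.15) and Vps39 (-0.19), of which Vps16 did not pass without control replicate 1. Other HOPS genes, Vps33a (-0.11) and Vps41 (-0.05), the late endosomal GTPase gene Rab7 (0.01) and the fusion SNAREs Stx17 (-0.11), Snap29 (-0.06), Vamp8 (0.11) and Ykt6 (-0.02) and the adaptor Plekhm1 (-0.07) did not pass.

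Of 11 other core genes, Epg5 (-0.18, SE 0.0509), which encodes a fusion tether, and Rubcn (-0.12), an inhibitor of the PI3-kinase complex, fell, and Sh3glb1 (0.10, SE 0.0303), a membrane-bending partner of UVRAG, rose (18.2% lower and 9.09% higher, beside 10.8% and 9.7% of all genes). Epg5 did not pass without control replicate 3 or H2O2 replicate 1, and Sh3glb1 did not pass without control replicate 2 or 3 or H2O2 replicate 1. Rubcn, named after its values were seen, did not pass by DESeq2's test, with the offset, or in the fits lacking control 2, control 3, H2O2 1 or H2O2 3. Upstream, 3 of 19 genes of mTORC1 and AMPK control fell (15.8%, near the 10.8% of all genes) and 0 rose (beside 9.7%). These were Rptor (-0.12, SE 0.0352), which encodes the mTORC1 scaffold raptor, Tsc2 (-0.13, SE 0.0403), a brake on mTORC1, and Rheb (-0.11), its activator, which was named after its values were seen. Without control replicate 3 or H2O2 replicate 1 none of the 3 passed, and Tsc2 was then at -0.13 and -0.07. Rptor and Tsc2 did not pass with the offset, Tsc2 and Rheb without control replicate 2, and Rheb with upper-quartile factors, by DESeq2's test or without H2O2 replicate 2.

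Among 10 genes of transcriptional control, Tfeb rose (10%, beside 9.7% of all genes) and Atf4 and Bhlhe40 fell (20%, beside 10.8%). Tfeb gave 15.3, 16.6 and 16.6 CPM in controls and 20.5, 19.7 and 18.0 with H2O2, a log2 fold change of 0.26 (SE 0.0692; edgeR adjusted p = 0.00709). It did not pass without H2O2 replicate 1 (adjusted p = 0.0526, against 0.00174 to 0.0526 over 16 alternatives). Tfe3 overlapped between groups (56.8 ± 4.0 and 56.2 ± 1.78 CPM, -0.02). Atf4, the main factor of the integrated stress response, fell by 0.12, and Bhlhe40, a repressor that can compete at the same E-boxes and was named after its values were seen, fell by 0.10 but did not pass with the offset or in the fits lacking control 2, control 3, H2O2 1 or H2O2 2. Foxo1 (-0.01), Foxo3 (0.01), Mitf (0.01), Tfec (-0.11) and Zkscan3 (0.04) did not pass.

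**Figure D5:**
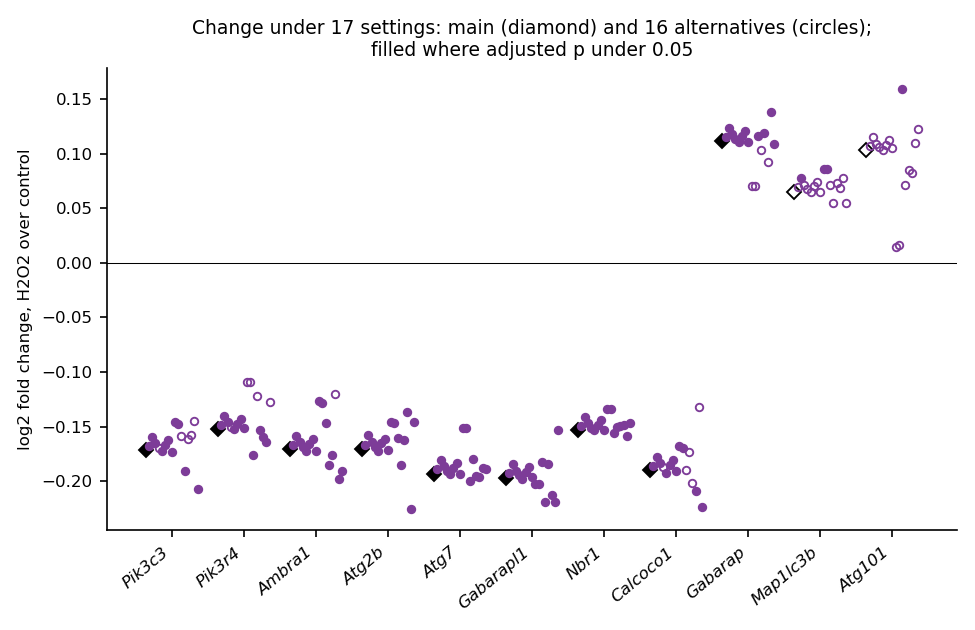
Log2 fold change (y axis) of the 9 called genes, Map1lc3b and Atg101 (x axis) by edgeR's quasi-likelihood test as reported (diamonds) and under 16 alternatives (circles), filled where the adjusted p was under 0.05. Atg2b, Atg7, Gabarapl1 and Nbr1 are filled throughout, and no point of a called gene crosses 0.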

How the data were processed

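For each library the authors deposited a table of raw read counts by gene symbol. The tools named are STAR 2.5.3, HTSeq, cutadapt, DESeq2 and bcl2fastq 2.17.1.14, with the build mm10, per the submitters' processing notes. Neither annotation nor strand setting is given in the sources used here. HTSeq's summary classes were left out: 4.76% to 5.46% of reads had no feature, 3.17% to 3.30% were ambiguous and 11.03% to 11.7% aligned to several places, which can remove reads of genes with near-identical copies.

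Genes passing filterByExpr were tested with edgeR 4.0.16 (R 4.3.3), scaled by TMM and with no term besides treatment, and CPM uses the same factors. SEs are the log2 fold change over the root of the F statistic. The methods were tested on simulated data, where recovery of changed genes was required only at a size above that of any called member. Alternatives were DESeq2 1.42.0, limma-voom (limma 3.58.1), other scaling factors and filters, the replicate number as a block, a loess offset (span 0.3) for transcript length and GC content, and fits without each library. Lengths and places came from GENCODE M21, promoters from RefSeq. The members, lists, ratios and alternatives were chosen with earlier results of these data known. CPM is given per library for members that passed and for the most abundant of a role where none passed. Becn1 and Map1lc3b were added to these after their values were seen. Of each other list up to 2 genes with the smallest p are named, and Sqstm1, Tfeb and Tfe3 always.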

Additional observations from a re-analysis of the deposited data

How the results depend on the processing

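With upper-quartile factors 2 members were higher in place of 1, and by DESeq2's test 5 were lower in place of 8, each of the 5 among the 8. Over all genes, upper-quartile factors gave 1455 higher in place of 1254, and DESeq2's test gave 993 lower in place of 1395. Without 1 library in turn, 0 to 2 members were higher (0 without control replicate 2 and without H2O2 replicate 1, 2 without control replicate 1) and 6 to 7 were lower. Over all genes those fits gave 891 to 1178 higher in place of 1254 and 926 to 1313 lower in place of 1395, the fewest lower without H2O2 replicate 1. The offset for length and GC content left 7 lower, all among the 8, and 1 higher, which was Map1lc3b and not Gabarap. Atg2b, Atg7, Gabarapl1 and Nbr1 passed in all 16 alternatives, and no called member changed sign in any of them. With the replicate block the counts were 8 lower and 1 higher, the same genes. Over all genes the block gave 1294 higher and 1444 lower, in place of 1254 and 1395. The labels give both groups numbers 1 to 3. The deviations of same-numbered libraries correlated at 0.0022, 0.030 and -0.026, which shows no strong pairing. With 3 libraries in a group a weak shared batch could pass unseen, so that whether the numbers pair the libraries is not settled. The median log2 fold change of all genes was at most 0.0082 under any scaling. Depth limits the scarce members most: Atg10, with 183 to 249 reads in a library, had an SE of 0.0915.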
